A study of Homo sapiens with 9 samples.

Results

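The integrated stress response and the unfolded protein response were followed through 40 genes, listed by name and matched to 40 of the 57338 Ensembl identifiers in the table. By the study's account the cells were HEK293T, a human embryonic kidney line. They had received an EGFP plasmid (empty vector) or one in which EGFP was fused to human protamine 1 (hPRM1) or human protamine 2 (hPRM2). Live cells with high EGFP signal were sorted 3 days later, and their RNA was sequenced from the 3′ end in 3 libraries per condition, 9 in all. Protamines are the small basic proteins that replace histones in sperm chromatin, and the plasmids were meant to drive them in a somatic line. By that account each condition is a sorted pool of transiently transfected cells. The values below do not bear this out for the libraries labelled hPRM1. Nothing in the labels says that the replicates were separate cultures, so p-values measure the spread between these libraries only.

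Cells under stress phosphorylate the translation factor eIF2, which lowers protein synthesis in general while the mRNA of ATF4 is translated more. ATF4 then activates genes for amino acid synthesis and transport, together with its own negative feedback. Unfolded protein in the endoplasmic reticulum (ER) is sensed by PERK (EIF2AK3), IRE1 (ERN1) and ATF6. PERK acts through eIF2, IRE1 splices the XBP1 mRNA, and cleaved ATF6 and spliced XBP1 activate genes for ER folding and for the degradation of misfolded ER proteins. A 3′ mRNA count reads neither translation of ATF4 nor splicing of XBP1, so the values below are levels of total mRNA.

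The libraries differed in depth and in content. The reads on genes, estimated from the spacing of low values, numbered 7930000 to 10790000 for the empty vector, 1270000 to 2650000 for hPRM2 and 4210000 to 5860000 for the libraries labelled hPRM1. The study reports higher average numbers of reads obtained in each group, with more for hPRM2 than for hPRM1. Those numbers are not limited to reads on genes, and the order of the 2 protamine groups is reversed in the estimate. Where a gene was at 0, as many as 3 reads could have been missed, or 1.13 to 2.36 CPM for hPRM2 and at most 0.378 CPM for the empty vector, counting error only. PRM2 was at 36130 to 71224 RPKM (reads scaled to library size and to gene length in kilobases) in the hPRM2 libraries and at 0 in the other 6, while PRM1 was listed at 0 in all 9, the libraries labelled hPRM1 included. Of 9 marker genes of HEK293T cells, all were above 0 in the empty vector and hPRM2 groups, but 7 were at 0 in every library labelled hPRM1, where the list summed to 6.97 to 11 RPKM against 3042 to 4738 in the empty vector. Those libraries held instead most of the listed markers of blood cells. All 5 neutrophil and monocyte and all 6 lymphocyte markers reached 1 RPKM in every one of them. So did 6 of the 7 red cell and 2 of the 3 platelet markers. The exceptions were HBD, at 0, 0 and 0.786 RPKM, and GP9, at 0.801 in replicate 1. The 5 neutrophil and monocyte markers summed to 3048 to 3899 RPKM there against at most 5.41 in any other library, and the 7 red cell markers to 2060240 to 2266400 against at most 18.2. Of the red cell markers, SLC4A1 was at 2.16, 16.3 and 6.57 RPKM in hPRM2 against 0, 1.19 and 0.245 in the empty vector. It was not called (log2 fold change 2.42, adjusted p = 0.117 by limma). HBA1 and HBA2 had lower means in hPRM2 than in the empty vector, and the other 4 were at 0 in both groups. In replicate 1 labelled hPRM1, the globin genes HBA2, HBB and HBA1 had at most 2797710, 2637160 and 372247 reads. The estimate for all genes there was 5860000. RPKM is scaled to the library total, so the values of other genes there are relative to a total that includes these globin reads. The 6 lymphocyte markers summed to 475 to 515 against at most 0.406, and the 3 platelet markers to 299 to 481 against at most 4.45. These libraries are therefore called the libraries labelled hPRM1. The vector, the cell type and any library batch cannot be told apart in them, and the sample titles name no batch. In all libraries, fewer cells of a type and less RNA per cell cannot be told apart either.

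Promoter sequence gives a view of the regulation for which these genes are known. The 250 bases before each start site were read from RefSeq (GRCh38.p14), which gave 55 start sites for 37 of the genes, all but PSPH, SHMT2 and SLC7A11, and were searched on both strands for 3 elements. The ER stress element, CCAAT and CCACG with 9 bases between them, is the binding site of ATF6 and stood at 6 of the 55 sites (CALR, CANX at overlapping sites, CRELD2, PDIA6 and XBP1), against 0.074% of 35116 start sites of all genes. The ATF4 element TGATGNAAN stood at 5 sites (ASNS, CEBPG, CHAC1, HERPUD1 and PPP1R15B), against 3.13% of all, and the element TGACGTGG, bound by ATF6 and XBP1, at 1 site (HYOU1), against 0.612%. The genes were listed for this regulation, so these shares describe the list. A match is not a measured binding site, and its absence from this window, as for SESN2 and TRIB3, says nothing about the factor. Windows of 30 bases are shown for 4 genes whose mRNA is described below, a transcription factor, an ER chaperone, an ATF4 target and an ER degradation gene, on the strand of the gene with the matched letters in capitals. They lie at chr22:28800597-28800626 (minus strand) for XBP1, chr19:12938379-12938408 (plus) for CALR, chr15:40953251-40953280 (plus) for CHAC1 and chr16:56931955-56931984 (plus) for HERPUD1. In all but XBP1 the element is on the opposite strand, so its letters appear as the reverse complement.
XBP1: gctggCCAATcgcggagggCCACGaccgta
CALR: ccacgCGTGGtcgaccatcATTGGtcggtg
CHAC1: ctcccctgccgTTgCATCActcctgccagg
HERPUD1: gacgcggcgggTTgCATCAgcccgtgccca

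Did the stress response genes differ between hPRM2 and the empty vector? Only SESN2 passed the test, lower in hPRM2, and none was called higher. Levels of ATF4 mRNA were close in both groups, DDIT3 (CHOP) was not above the empty vector in any hPRM2 library, and the lowest values relative to the empty vector were those of the ATF4 targets CHAC1, SESN2, CTH and TRIB3 and of the sensor EIF2AK3. The test was limma on log2(RPKM + 1), over the 13126 genes with at least 1 RPKM in at least 3 of the 6 libraries, with Benjamini-Hochberg adjustment, and a call needed an adjusted p of at most 0.05 and a change of at least 2-fold. Of the 40 genes, 39 could be tested, since VLDLR stayed below 1 RPKM in every library. The share called among all genes was 1.37% lower and 1.36% higher, so 1 of 39 lower and 0 of 39 higher lay near the background.

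**Figure D1:**
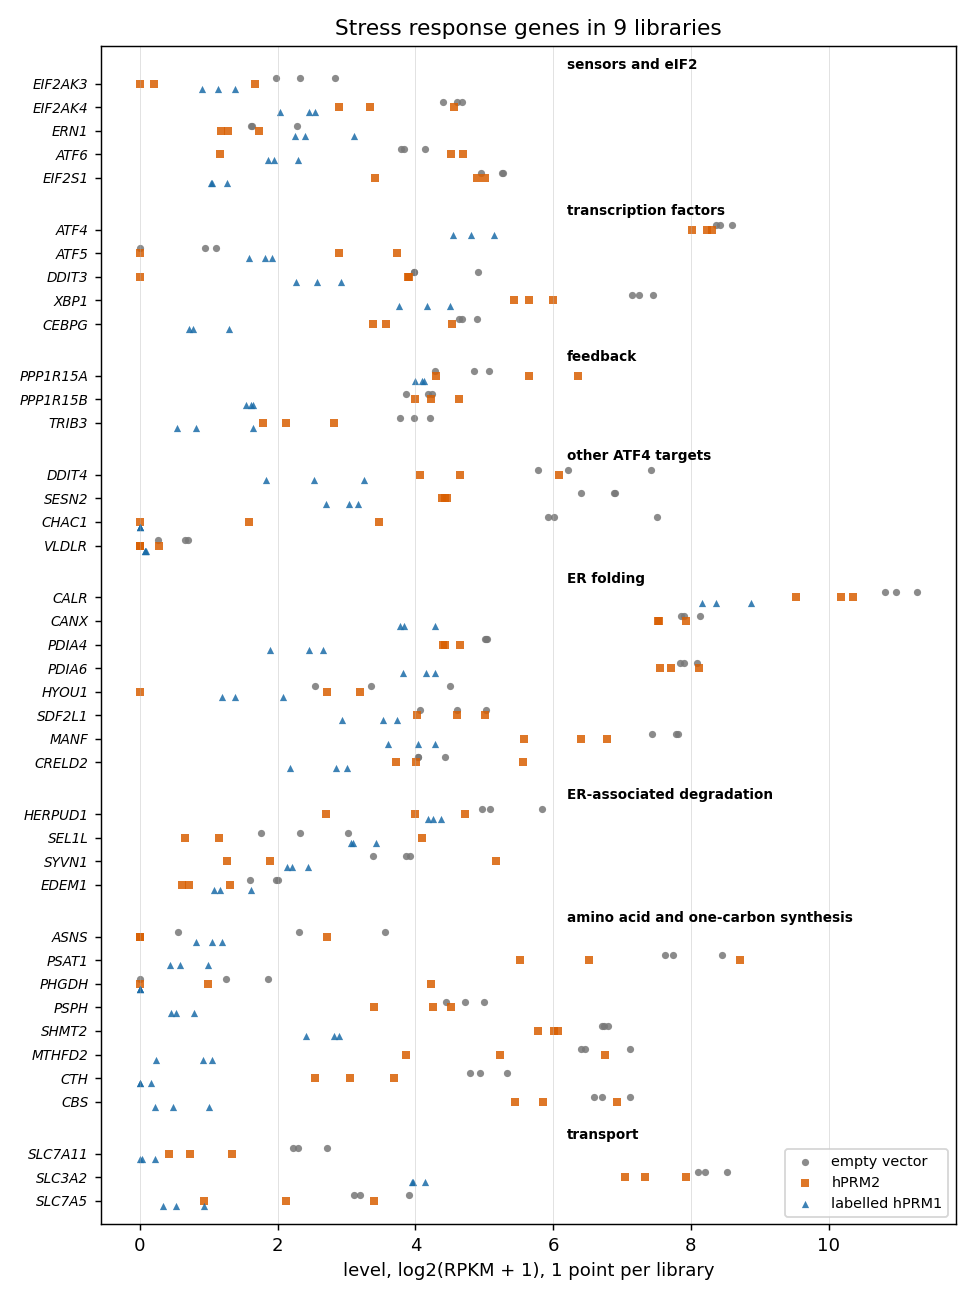
Level of each of the 40 genes in every library on a log scale, log2(RPKM + 1), grouped by role, with 1 point per library. Grey circles are the empty vector, orange squares hPRM2 and blue triangles the libraries labelled hPRM1; the blue points lie lowest for most genes, while the orange points of many genes spread over several log2 units.

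The fold changes as a whole leaned downward, as they did for all genes. Of the 39 genes, 34 had a negative log2 fold change (87.2%) against 75.4% of all genes tested, and the median was -0.95 against -0.72 for all genes. All 3 hPRM2 libraries lay below all 3 empty vector libraries for 17 of the 39, against 29.9% of all genes, and above them for 0 of the 39, against 6.01%. At an unadjusted p under 0.05 there were 12 genes (limma), all lower, which is 12 of 39 against 25.5% of all genes tested in either direction, and the per-gene test of the study's methods called 0. The scaling mattered: after median-of-ratios rescaling the median was -0.43 against -0.26 for all genes, 28 of 39 changes were negative, and 0 genes were called in either direction, with 0.617% of all genes lower and 1.65% higher.

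**Figure D2:**
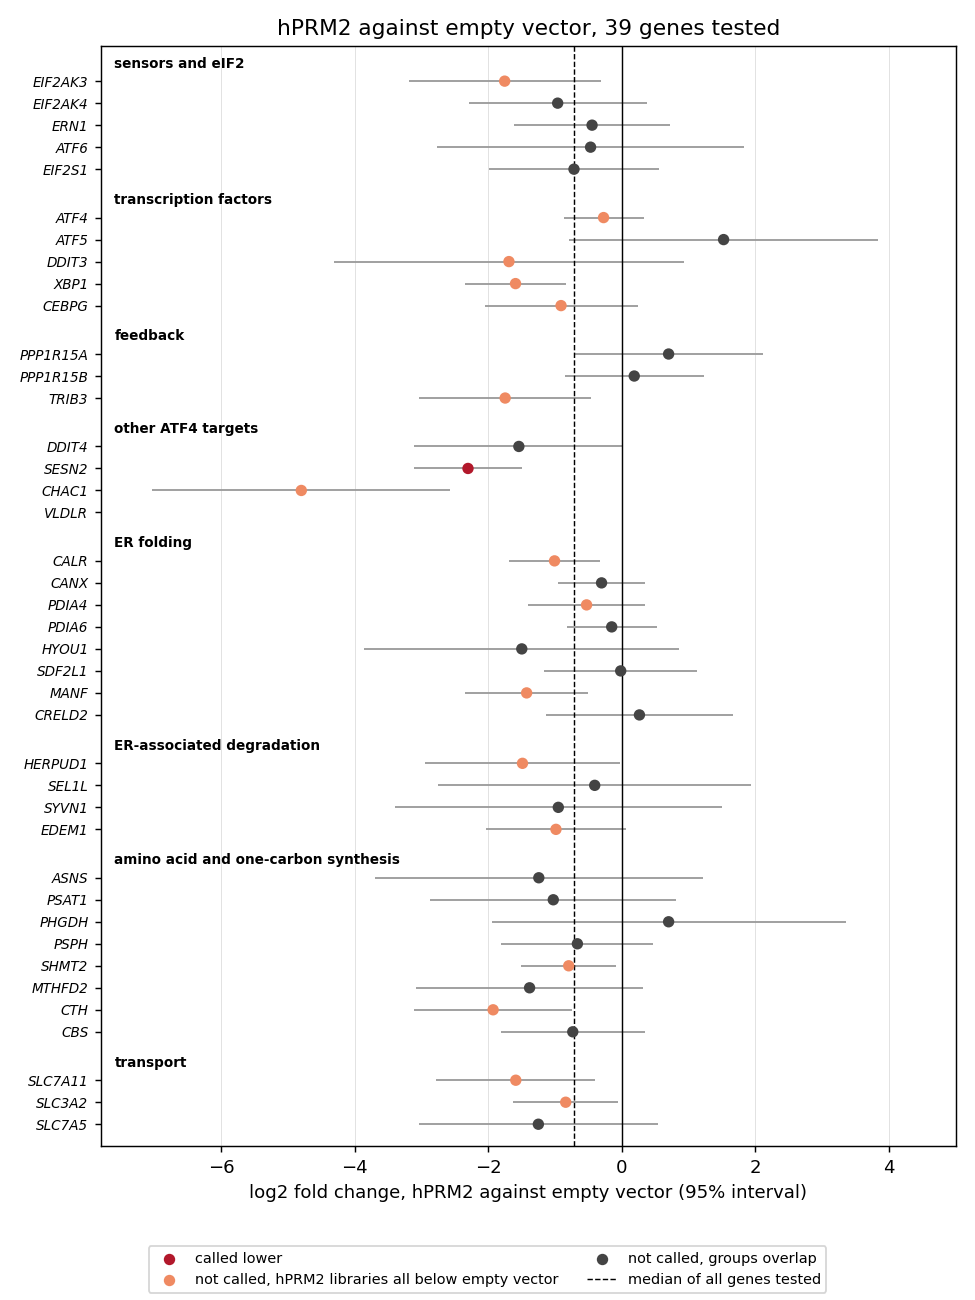
Log2 fold change of each of the 39 genes tested, hPRM2 against empty vector, with its 95% interval from limma; the dashed line is the median of all genes tested, at -0.72. SESN2 is the single gene called, and the interval of ATF4 lies between -0.87 and 0.33.

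The sensors and eIF2 showed no call. EIF2AK3, the ER kinase PERK, was at 2.95, 4.0 and 6.12 RPKM in the empty vector and at 0, 2.18 and 0.157 in hPRM2. Every hPRM2 value was below every empty vector value, but the log2 fold change of -1.75 (SE 0.61) had an adjusted p of 0.143 (limma), and the hPRM2 values rest on at most 12.2 reads. ERN1, the sensor IRE1, was at 2.05, 2.08 and 3.86 RPKM against 1.43, 2.31 and 1.25, groups that overlapped (-0.44, interval -1.61 to 0.72). ATF6 was at 12.9 to 16.6 RPKM in the empty vector and at 1.25, 24.7 and 21.8 in hPRM2, where replicate 1 was low and the other two were above the empty vector. EIF2AK4 (GCN2), the kinase activated by uncharged tRNA, and EIF2S1, which encodes the phosphorylated subunit of eIF2, had log2 fold changes of -0.96 and -0.72 with overlapping values, and in both replicate 1 of hPRM2 was the lowest library.

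Among the transcription factors, ATF4 was abundant in both groups. It was at 330, 342 and 385 RPKM in the empty vector and at 300.2, 317 and 259 in hPRM2, so the hPRM2 libraries were all slightly lower. The log2 fold change was -0.27 (SE 0.25, adjusted p = 0.507 by limma), and its 95% interval of -0.87 to 0.33 excluded a doubling, whereas rescaling turned the sign to 0.29 (interval -0.38 to 0.96). DDIT3, the stress-induced factor CHOP, was at 14.8, 14.9 and 29 RPKM against 0, 13.9 and 14 (log2 fold change -1.69, SE 1.11, adjusted p = 0.359, limma). The 0 is replicate 1, the other 2 hPRM2 libraries were just under the lowest empty vector library, and they rest on at most 14.4 and 18.4 reads. XBP1 was at 151, 141 and 175 RPKM against 62.9, 42 and 49.2, with no overlap and a log2 fold change of -1.59 (SE 0.32), and its adjusted p of 0.0524 (limma) narrowly missed the threshold. CEBPG, a bZIP partner of ATF4, was at 23.8 to 28.7 RPKM against 22, 9.39 and 10.9 (-0.91, adjusted p = 0.278 by limma). ATF5, translated under eIF2 phosphorylation like ATF4, was at 0, 1.16 and 0.92 RPKM against 0, 12.3 and 6.44. It had the largest positive value of the list, 1.53, with an SE of 0.98 and an adjusted p of 0.352 (limma), and it was the one gene called higher, at 2.63 and an adjusted p of 0.034 (limma), when replicate 1 of hPRM2 was left out.

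The feedback genes went different ways. PPP1R15A (GADD34), the inducible subunit that directs eIF2 dephosphorylation, was at 28, 32.5 and 18.5 RPKM in the empty vector and at 81.5, 49.3 and 18.7 in hPRM2. Replicates 1 and 2 lay above the empty vector and replicate 3 within it, and the log2 fold change of 0.70 (SE 0.60) had an adjusted p of 0.469 (limma). PPP1R15B, its constitutive counterpart, was at 13.5 to 18 against 15 to 23.7 RPKM (0.19, interval -0.85 to 1.23). TRIB3, a pseudokinase induced by ATF4 and CHOP that restrains ATF4, was at 17.5, 14.8 and 12.7 RPKM against 3.35, 2.44 and 6.08. All hPRM2 values were below all empty vector values (-1.75, SE 0.54, adjusted p = 0.118 by limma), but at most 7 to 22 reads stand behind the hPRM2 values against 285 to 312 in the empty vector.

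SESN2 and CHAC1 carried the largest differences. SESN2 (ENSG00000130766, chromosome 1 from 28259527 to 28282491, plus strand, GRCh38 in GENCODE 29) encodes sestrin 2, an ATF4 target that inhibits mTORC1 signalling. Its level was 83.9, 117 and 118 RPKM in the empty vector and 19.9, 21.1 and 20.6 in hPRM2. The hPRM2 libraries lay close together and far below the empty vector. They held at most 86 to 169 reads of the gene, against 2130 to 4092 by the same bound in the empty vector. The log2 fold change was -2.30 (SE 0.34, adjusted p = 0.0297 by limma), 4.93-fold lower. The call was lost in 9 of 15 alternatives. In those, 0.0152% to 0.617% of all genes were called lower, against 1.37% as reported. Among them were median-of-ratios rescaling (-1.75, adjusted p = 0.059 by limma) and no minimum level (adjusted p = 0.0617, limma). Leaving out any library but replicate 1 of hPRM2 also lost it (adjusted p = 0.064 to 0.153, limma). CHAC1 (ENSG00000128965, chromosome 15 from 40952962 to 40956519, plus strand) encodes a glutathione-degrading enzyme and is a sensitive ATF4 target. It was at 63.7, 59.9 and 181 RPKM in the empty vector and at 0, 2.01 and 10.1 in hPRM2, where replicates 2 and 3 had at most 4.08 and 25.9 reads. The log2 fold change of -4.80 (SE 0.94) was lower than that of all but 0.16% of genes tested, with an adjusted p of 0.0503 (limma). DDIT4 (REDD1), another mTORC1 inhibitor, was at 54.2, 73.2 and 170 RPKM against 66.7, 15.7 and 24.1, and the groups overlapped through replicate 1 of hPRM2 (-1.54, adjusted p = 0.2 by limma).

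**Figure D3:**
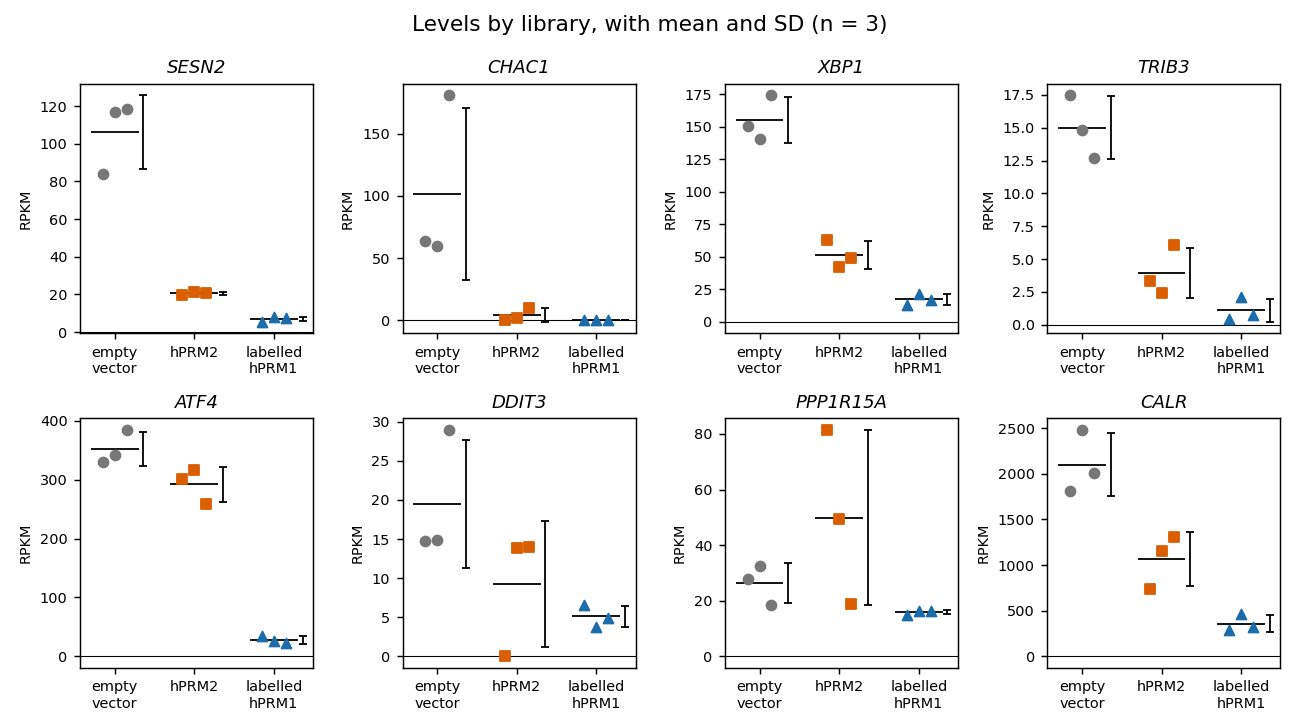
RPKM of 8 genes in each library (points), with the group mean (horizontal line) and SD (bar at the right of each group, n = 3), on linear axes of different height. All but PPP1R15A show no overlap between empty vector and hPRM2, though for ATF4 and DDIT3 the nearest libraries almost meet, and DDIT3 and CHAC1 are at 0 in 1 hPRM2 library.

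None of the 8 ER folding genes was called. CALR (calreticulin), the gene of the list with the highest RPKM, was at 1809, 2482 and 2011 RPKM against 736, 1157 and 1305 in hPRM2, without overlap (-1.01, SE 0.29, adjusted p = 0.102 by limma). MANF, a secreted ER stress protein, was at 173 to 225 RPKM against 83.5, 47 and 109, again without overlap (-1.42, adjusted p = 0.0946, limma). CANX (calnexin) and the disulfide isomerases PDIA4 and PDIA6 had log2 fold changes of -0.30, -0.53 and -0.15, and all 3 turned positive after rescaling, at 0.26, 0.02 and 0.41. SDF2L1, of an ER chaperone complex, was at 15.8, 31.6 and 23.2 RPKM against 23.3, 15.3 and 31.3, values that lay in the same range. The chaperone HYOU1 was at 21.7, 9.28 and 4.82 RPKM against 0, 8.21 and 5.57 (-1.50, interval -3.86 to 0.86), and CRELD2 at 15.4, 15.4 and 20.5 against 46, 12.2 and 15.1 (0.27). Replicate 1 of hPRM2 held the lowest HYOU1 and the highest CRELD2 value of the group, and without it the values were -0.51 and -0.30.

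ER-associated degradation gave no call either. HERPUD1, a membrane component of this pathway, was at 33, 30.3 and 56 RPKM against 25.5, 5.52 and 15, all hPRM2 values lower (-1.49, SE 0.62, adjusted p = 0.192 by limma). EDEM1, which targets misfolded glycoproteins, was at 2.04 to 3.04 against 0.53 to 1.48 RPKM, also without overlap (-0.99, adjusted p = 0.218, limma). SYVN1, the ubiquitin ligase HRD1, was at 14.2, 13.6 and 9.41 RPKM against 35, 1.4 and 2.7. Its partner SEL1L was at 4.03, 7.14 and 2.37 against 16.1, 0.569 and 1.22. For both, replicate 1 of hPRM2 was above every empty vector library and the other two hPRM2 libraries were below every one.

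Among the amino acid and one-carbon genes, PSAT1, MTHFD2 and CBS had their highest hPRM2 level in replicate 1. PSAT1, of the serine pathway, was at 213, 196 and 351 RPKM in the empty vector and at 418, 45 and 90.5 in hPRM2 (-1.03, SE 0.78). MTHFD2, of mitochondrial folate metabolism, was at 87.6, 84 and 138 against 107, 13.6 and 36.4, and CBS, of transsulfuration, at 95.6, 104 and 138 against 121, 42.5 and 56.8 (-0.73, adjusted p = 0.339 by limma). In all 3 genes replicate 1 lay within or above the empty vector range and replicates 2 and 3 below it. CTH, the next enzyme of transsulfuration, was low in all 3 hPRM2 libraries, at 11.9, 4.82 and 7.28 RPKM against 29.7, 26.7 and 39.1 (-1.93, SE 0.50, adjusted p = 0.0854 by limma). SHMT2, which makes mitochondrial glycine, was at 104 to 110 RPKM against 54.1, 63.4 and 66.1 without overlap (-0.79, adjusted p = 0.163 by limma), while PSPH overlapped (-0.66). ASNS (asparagine synthetase) was low throughout, at 0.474, 10.8 and 3.98 RPKM against 0, 0 and 5.55, and PHGDH, the first enzyme of serine synthesis, at 1.39, 2.63 and 0 against 17.8, 0 and 0.992, so neither gave a usable difference (intervals -3.70 to 1.21 and -1.95 to 3.35). CBS and PSPH have near-identical copies in the genome, and reads may be divided among them.

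Among the transporters, SLC7A11 (xCT), the cystine importer, was at 3.69, 3.92 and 5.6 RPKM against 1.52, 0.34 and 0.66. Its partner SLC3A2 was at 274, 294 and 367 against 131, 243 and 161. Neither overlapped, and neither passed the test (-1.59, adjusted p = 0.123, and -0.84, adjusted p = 0.177, limma). SLC7A5 (LAT1), a carrier of large neutral amino acids, was at 7.61 to 14 against 9.59, 0.92 and 3.33 RPKM, and replicate 1 overlapped the empty vector (-1.25).

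Replicate 1 of hPRM2 stood apart. It held 7 of the 40 genes at 0, against 3 and 0 in replicates 2 and 3, and had 9652 genes above 0 in all against 14353 and 15633, although its estimated depth was the highest of the group. It was the highest of its group for 17 of the 40 genes and the lowest for 14. The SD between hPRM2 libraries had a median of 0.69 over the 40 genes on the log2(RPKM + 1) scale, against 0.27 in the empty vector, and for replicates 2 and 3 alone it was 0.40. Without replicate 1, 13 genes were called lower and 1 higher (ATF5), where 12.3% of all genes were called lower and 6.17% higher. The 13 were XBP1, CEBPG, DDIT4, SESN2, CHAC1, MANF, HERPUD1, SYVN1, PSAT1, MTHFD2, CTH, CBS and SLC7A11, with log2 fold changes from -1.16 for CBS to -3.96 for CHAC1. That fit has 2 hPRM2 libraries, and was not the basis of the calls above. Leaving out any other library of this comparison left 0 of the 40 genes called in either direction. In those fits 0.0152% to 0.335% of all genes were called lower and 0.0762% to 0.305% higher.

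**Figure D4:**
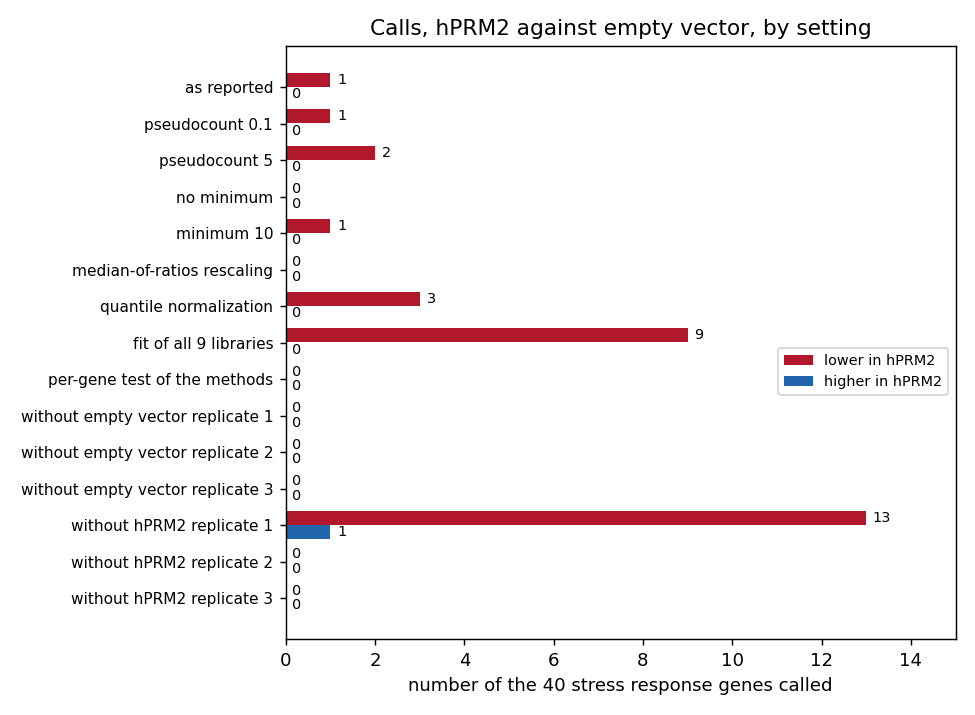
Number of the 40 genes called lower (red) and higher (blue) in hPRM2 against empty vector, as reported and under other settings. The bar length is a count, and the replicate block and the fit without the fold threshold are not shown. The count lower is 1 as reported and 13 without replicate 1 of hPRM2, and the count higher is 0 in every setting shown except that one, where it is 1.

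A further 61 genes of the same pathways were counted in the same fit, of which 60 could be tested. None was called in hPRM2 by limma as deposited, against 1.37% of all genes lower and 1.36% higher. The median log2 fold change of the 60 was -0.98 against -0.72 for all genes, and 50 were negative against 75.4%. An unadjusted p under 0.05 (limma) was reached by 18, against 25.5% of all genes. The per-gene test of the methods and the replicate-wise alternatives other than the one without replicate 1 of hPRM2 also gave 0. In those settings at most 0.335% of all genes were called lower and at most 0.373% higher. HSPA5 (BiP), the central ER chaperone, was at 255, 216 and 184 RPKM in the empty vector and at 84.5, 95.3 and 128 in hPRM2, lower without overlap but not called (-1.09, SE 0.31, adjusted p = 0.102 by limma). ATF3, an early stress-induced factor, was at 207, 170 and 98.3 RPKM against 9.56, 30.5 and 31.6 (-2.78, SE 0.56, adjusted p = 0.0527 by limma). P4HB, a disulfide isomerase, was among the 10 genes with a positive value, at 1.11 (adjusted p = 0.0777, limma) and not called, and it was called after median-of-ratios rescaling (1.67, adjusted p = 0.0468 by limma). All hPRM2 libraries lay below all empty vector libraries for 23 of the 60 (29.9% of all genes) and above them for 3 (6.01%). The 3 were P4HB, EIF2B2 (1.35, adjusted p = 0.0941 by limma) and SLC38A2 (0.65, adjusted p = 0.263 by limma).

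In the libraries labelled hPRM1, 38 of the 40 genes could be tested against the empty vector, VLDLR and PHGDH being too low, and 32 were called lower and 1 (ATF5) higher. Among all 13588 genes tested, 62.5% were called lower and 12.9% higher, and the median log2 fold change was -1.72 against -2.74 for the 38. For 33 of the 38 all 3 libraries lay below the empty vector (66.4% of all genes), and for 2 above it (14.5%). The blood cell markers given above differed between the same groups as every one of these values, and their part in them was not tested. Both comparisons share the empty vector libraries. Median-of-ratios rescaling moved the median of all genes to -0.12 and that of the 38 to -1.20, and left 20 called lower (29% of all genes) and 5 called higher (28.9%).

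**Figure D5:**
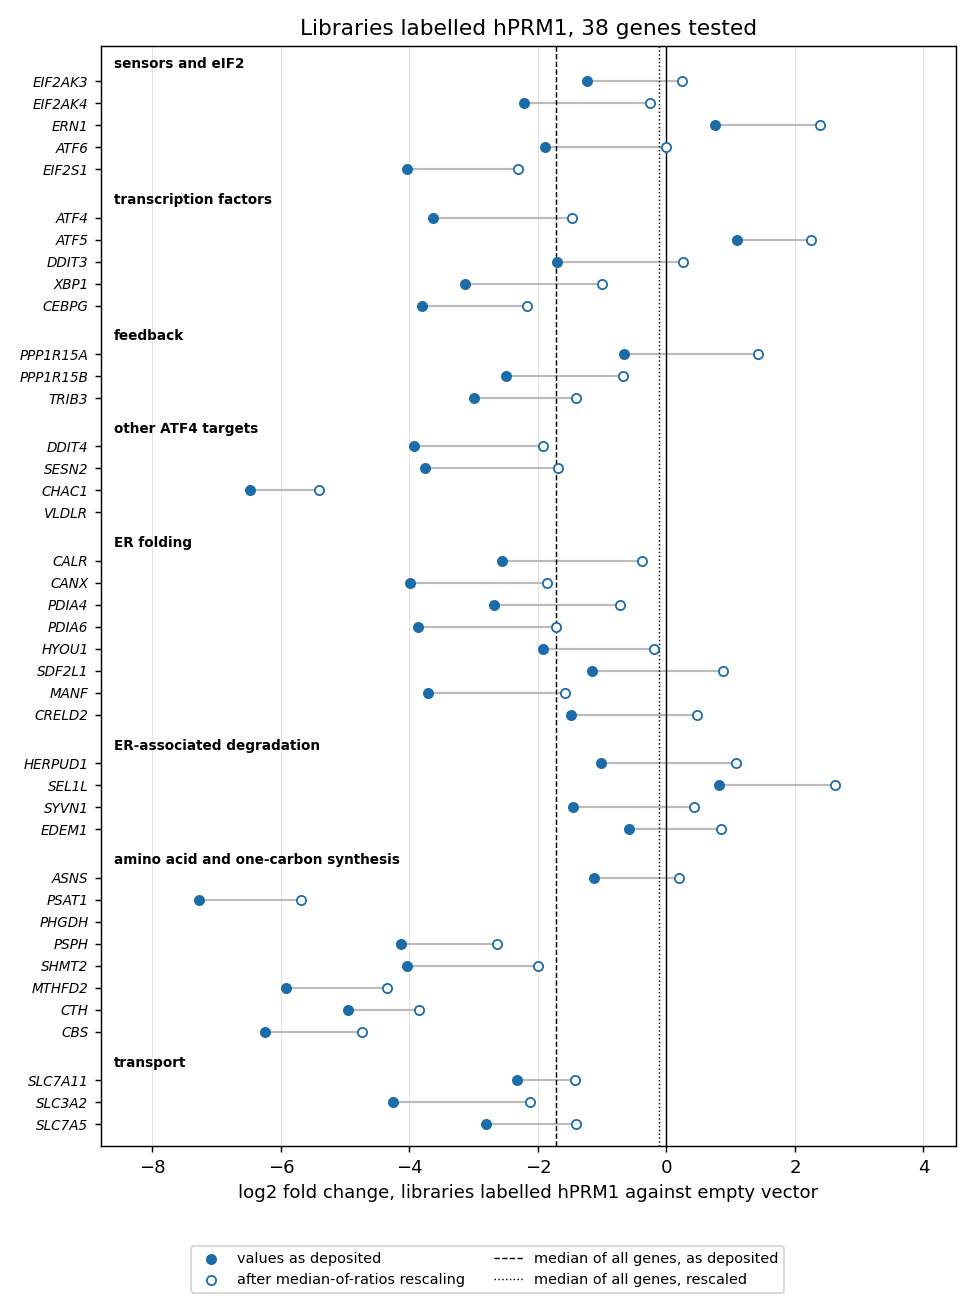
Log2 fold change of each of the 38 genes tested, libraries labelled hPRM1 against empty vector, as deposited (filled) and after median-of-ratios rescaling (open), with the median of all genes at -1.72 (dashed) and -0.12 (dotted). The synthesis genes PSAT1, CBS, MTHFD2 and CTH stay far below 0 on both scales, while ERN1, ATF5 and SEL1L lie above 0 on both.

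The amino acid and one-carbon genes had the lowest median of the 8 roles there, -4.96 over the 7 tested. PSAT1 was at 0.352, 0.49 and 0.987 RPKM against 196 to 351 in the empty vector (-7.27, and -5.69 after rescaling), CBS at 0.162, 0.395 and 1 against 95.6 to 138 (-6.24 and -4.74), and MTHFD2 at 0.892, 1.07 and 0.182 against 84 to 138 (-5.93 and -4.36). CTH was at 0, 0 and 0.12 RPKM, and CHAC1 was listed at 0 in all 3 libraries. PSPH and SHMT2 were also called lower on both scales (-4.13 and -4.04 as deposited). So 6 of the 7 tested genes of this role were, all but ASNS (-1.13, adjusted p = 0.186 by limma). Of all genes, 62.5% were called lower as deposited and 29% after rescaling. All 3 transporters were lower on both scales, from -2.33 for SLC7A11 to -4.26 for SLC3A2, as were the ATF4 targets SESN2 (5.48, 8.01 and 7.23 RPKM, -3.76) and DDIT4 (-3.93).

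ATF4 itself was at 34.3, 27 and 22.3 RPKM, a log2 fold change of -3.63 as deposited and -1.48 after rescaling, called in both. XBP1 (-3.14), CEBPG (-3.81), TRIB3 (-2.99) and EIF2S1 (-4.04) were called lower on both scales too. All 8 ER folding genes were called lower as deposited (62.5% of all genes), from -1.16 for SDF2L1 to -4.0 for CANX. After rescaling only CANX, PDIA6 and MANF were (29% of all genes), and SDF2L1 and CRELD2 changed sign. DDIT3 and EIF2AK3 were called lower as deposited (-1.70 and -1.24) and were above 0 after rescaling (0.26 and 0.25).

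After rescaling, 5 of the 38 genes were called higher (28.9% of all genes). ATF5 was the only one also called on the deposited scale, at 2.53, 2.8 and 2 RPKM against at most 1.16 in the empty vector (1.09, adjusted p = 0.0199 by limma, and 2.24 after rescaling). That call was lost in 7 of 14 alternatives, among them leaving out replicate 1 of the empty vector (0.75) or replicate 1 (1.07) or 2 (1.02) labelled hPRM1. ERN1 was at 4.28, 7.61 and 3.77 RPKM against 2.05 to 3.86 (0.75, not called, and 2.39), and SEL1L at 7.54, 9.76 and 7.36 against 2.37 to 7.14 (0.83, not called, and 2.63). PPP1R15A (15, 16.4 and 16.2 RPKM) and HERPUD1 (19.8, 17.2 and 18.2 RPKM) had negative values as deposited, -0.66 and -1.02, and positive ones after rescaling, 1.42 and 1.08. HERPUD1 thus went from called lower to called higher with the scaling. Of the remaining degradation genes, SYVN1 was called lower as deposited (-1.46) and EDEM1 was not (-0.58), and both were positive after rescaling (0.44 and 0.85). Among the further 61 pathway genes, 47 were called lower and 2 higher as deposited, against 62.5% and 12.9% of all genes. The 2 were CEBPB, a factor of the C/EBP family (1.72), and NIBAN1, a stress-induced gene (4.59), and HSPA5 (15.5, 25.1 and 17.3 RPKM) and ATF3 (0.29, 0 and 0.34 RPKM) were lower on both scales.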

How the data were processed

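GEO's labels put the 9 RNA libraries into an empty vector, an hPRM1 and an hPRM2 group of 3. The submitters' processing notes name FastQC, cutadapt, STAR, Salmon and the build hg38, with versions not given in the sources used here. The authors made RPKM values by dividing each gene's count by the library total and by gene length, after removing mitochondrial genes, and deposited them for 57338 genes without counts. Dividing 3′ reads by gene length lowers long genes, so levels of different genes are only roughly comparable. No column was left unused (0 further sample columns).

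Depth was estimated from 1-read steps of 13863 single-transcript genes of GENCODE 29, and reads per gene were bounded with the longest transcript. The steps did not give whole reads for genes with several transcripts, which left no basis for a count test. Each protamine group was fitted alone against the empty vector with limma 3.58.1 in R 4.3.3 (lmFit, eBayes with trend and robust) on log2(RPKM + 1), which understates the change of low genes, with a minimum of 1 RPKM in 3 of 6 libraries, Benjamini-Hochberg adjustment over all genes tested and no replicate block. The fit was run on simulated data with the same spread in every gene and group. The real groups differ, with a median SD over all genes of 0.91 in hPRM2 against 0.37 in the empty vector. The simulation does not cover that inequality. Intervals are 95% limma intervals. Python 3.11.15, pandas 2.3.3, numpy 2.4.6 and matplotlib 3.10.9 did the rest.

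The results were recomputed with a replicate block, with all 9 libraries in 1 fit, without each replicate (the genes tested stayed those of the full comparison), with pseudocounts of 0.1 and 5, with no minimum and with one of 10 RPKM, without the fold threshold, after quantile normalization and after median-of-ratios rescaling. The per-gene test of the study's methods was extended to these genes after seeing the data. The 40 genes, their roles, the 61 further pathway genes and the marker lists were chosen with earlier results of these data known. Named were all 40 genes by role, with every library for those called in hPRM2, for those of largest and smallest change in each role and for a set of central genes, plus HSPA5, ATF3 and any further pathway gene called in hPRM2, of which there was none. P4HB, EIF2B2, SLC38A2, CEBPB, NIBAN1 and the single values of the markers HBD, GP9 and SLC4A1 were added after their values were seen.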

Additional observations from a re-analysis of the deposited data

How the results depend on the processing

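For hPRM2 against the empty vector, the number of the 40 genes called lower was 1 (1.37% of all genes). It was 0 with no minimum (0.0814%) and after median-of-ratios rescaling (0.617%). It was also 0 with a replicate block (0.0609%) and in the per-gene test of the methods (0.0686%), which was chosen for these genes after seeing the data. The count was 2 with a pseudocount of 5 (0.769%), 3 after quantile normalization (0.533%) and 9 in the fit of all 9 libraries (12.3%). Leaving out each replicate gave 0 to 13 lower (0.0152% to 12.3% of all genes) and 0 to 1 higher (0.0762% to 6.17%). All of the higher end came from the fit without replicate 1 of hPRM2. The replicate numbers did not pair the libraries (deviations of equal numbers correlated at -0.0783 to 0.0795), and with a replicate block 0 genes were called. The median log2 fold change was -0.95, with that of all genes tested, given in brackets, at -0.72. It moved to -0.43 after median-of-ratios rescaling (-0.26), -0.53 after quantile normalization (-0.16) and -0.69 with a pseudocount of 5 (-0.41). Of the 61 further pathway genes, 0 were called (1.37% of all genes lower and 1.36% higher). The fit of all 9 libraries gave 10 lower and 2 higher (12.3% and 3.86% of all genes), and rescaling 1 higher (1.65%). Leaving out each replicate gave 0 to 9 lower (0.0152% to 12.3%) and 0 to 2 higher (0.0762% to 6.17%). SESN2 stayed lower in all 15 alternatives, from -2.46 to -1.75, with an adjusted p (limma or the per-gene test) of 0.00277 to 0.194.

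For the libraries labelled hPRM1, 32 genes were called lower, 20 after median-of-ratios rescaling, 21 after quantile normalization and 20 in the per-gene test. Of all genes tested, 62.5%, 29%, 32.3% and 27.4% were called lower, in the same order. The 1 higher call (12.9% of all genes) became 5 after rescaling (28.9%) and 3 after quantile normalization (25.6%). It became 0 with a pseudocount of 0.1 or 5, the fit of all 9 libraries or the per-gene test. The count was also 0 with a minimum of 10, but ATF5, the gene called, reached at most 2.8 RPKM and was not tested there. In those settings 5.83% to 12.9% of all genes were called higher. Leaving out each replicate gave 0 to 2 higher, against 12% to 13.4% of all genes. The median was -2.74, with that of all genes tested, given in brackets, at -1.72. It moved to -1.20 after median-of-ratios rescaling (-0.12) and to -1.35 after quantile normalization (-0.30). With pseudocounts of 0.1 and 5 it was -3.44 (-2.27) and -1.86 (-0.92). A minimum of 10 left 28 genes tested, with a median of -3.73 (-2.43). Of the further genes, 47 lower became 23, 27 and 28 (per-gene test), against 29%, 32.3% and 27.4% of all genes. The 2 higher became 8, 6 and 1, against 28.9%, 25.6% and 5.83%. Signs turned after median-of-ratios rescaling for EIF2AK3 (0.25), DDIT3 (0.26), PPP1R15A (1.42), SDF2L1 (0.88), CRELD2 (0.48), HERPUD1 (1.08), SYVN1 (0.44), EDEM1 (0.85) and ASNS (0.20), and after quantile normalization for EIF2AK3 (0.18), PPP1R15A (0.995), SDF2L1 (0.49), CRELD2 (0.17), HERPUD1 (0.65), SYVN1 (0.16), EDEM1 (0.79) and ASNS (0.15). Both scalings assume similar overall levels in all libraries. The low hPRM2 depth limits genes such as EIF2AK3, TRIB3 and ASNS, with at most 12.2, 22 and 18.8 reads in any hPRM2 library.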
